A study of Homo sapiens with 6 samples.

Results

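The genes described here are 4 members of the CCAAT/enhancer-binding protein (C/EBP) family, CEBPB, CEBPA, CEBPG and CEBPD, together with TRIB1, a regulator of C/EBP protein stability. Binding near them was taken from 3 lists of chromatin immunoprecipitation sequencing (ChIP-seq) peaks: the factor CEBPB in Calu-3 cells, the factor KLF5 in Calu-3 cells, and KLF5 in 16HBE14o- cells. Calu-3 is a lung adenocarcinoma line and 16HBE14o- an immortalised bronchial epithelial line; both were untreated and grown in the same serum-supplemented medium. The authors combined the samples of a group into 1 list, so no value below carries an error between samples. Antibody sc-7962 was used in both CEBPB samples and sc-398470 in both 16HBE14o- KLF5 samples, whereas 1 Calu-3 KLF5 sample was precipitated with sc-398470 and the other with a rabbit anti-KLF5 antibody. Cell line and antibody cannot be told apart where the KLF5 lists are compared. CEBPB was profiled in Calu-3 only among the samples analysed here. The lists hold no expression values, so the labelled bronchial epithelial cell type could not be set against marker genes.

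A peak belonged to a gene when its midpoint lay within 100 kb of the gene's span on the human assembly hg19, with spans rounded to kb. The resulting windows ran on chromosome 20 from 48707 to 48910 kb for CEBPB, on chromosome 19 from 33690 to 33894 kb for CEBPA and 33764 to 33974 kb for CEBPG, and on chromosome 8 from 48549 to 48751 kb for CEBPD and 126342 to 126551 kb for TRIB1, so that each span starts and ends 100 kb inside its window. By this rule 66 of the 74158 listed peaks were found: 41 of 69386 CEBPB peaks, 8 of 1510 Calu-3 KLF5 peaks and 17 of 3262 16HBE14o- KLF5 peaks. The CEBPA and CEBPG windows overlapped, and the 5 CEBPB peaks that lay in both were counted once in these totals. The 5 genes were proposed with earlier results of these lists known, and peaks were selected on position alone, from the deposited coordinates. Their counts are therefore descriptions, and no test was made of them.

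C/EBP proteins are basic leucine zipper factors that bind DNA as homodimers or heterodimers with one another. CEBPB acts in inflammatory and differentiation programmes, CEBPA in the differentiation of lung epithelium and other tissues, and CEBPD is induced in acute-phase responses. CEBPG lacks a classical activation domain and works mainly as a partner of other family members. TRIB1 is a pseudokinase that brings the ubiquitin ligase COP1 to C/EBP proteins, CEBPA in particular, and so promotes their degradation. KLF5 is a zinc-finger factor of epithelia that binds GC-rich and CACCC-type sequences.

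The promoters of CEBPB, CEBPA and CEBPG are printed because the question is whether the factors were listed at the family's own genes. They run from 250 bases before to 50 bases after a transcript start, are written 5′ to 3′ in the direction of the gene, and come from RefSeq on GRCh38.p14, which is not the assembly of the peaks. Capitals mark matches to the KLF-type motif CCNCNCCC on either strand; the C/EBP-type motif TTGCNNAA was searched in the same way. Promoters of 3 of the 5 genes are shown.
CEBPB, upstream start (chr20:50190333-50190632, plus strand): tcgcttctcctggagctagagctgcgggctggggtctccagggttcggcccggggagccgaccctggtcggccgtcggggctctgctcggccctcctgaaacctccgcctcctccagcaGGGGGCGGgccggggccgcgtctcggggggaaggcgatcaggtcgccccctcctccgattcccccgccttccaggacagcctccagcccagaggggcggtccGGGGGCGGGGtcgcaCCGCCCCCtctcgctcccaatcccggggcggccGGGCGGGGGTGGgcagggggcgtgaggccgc
CEBPB, downstream start (chr20:50190580-50190879, plus strand): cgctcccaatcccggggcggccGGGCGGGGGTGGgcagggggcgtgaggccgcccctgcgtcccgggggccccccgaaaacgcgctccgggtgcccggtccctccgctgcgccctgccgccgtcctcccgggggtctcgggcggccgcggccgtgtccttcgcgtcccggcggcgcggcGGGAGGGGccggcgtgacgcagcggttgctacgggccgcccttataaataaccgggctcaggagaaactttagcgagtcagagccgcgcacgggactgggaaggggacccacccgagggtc
CEBPA (chr19:33302485-33302784, minus strand): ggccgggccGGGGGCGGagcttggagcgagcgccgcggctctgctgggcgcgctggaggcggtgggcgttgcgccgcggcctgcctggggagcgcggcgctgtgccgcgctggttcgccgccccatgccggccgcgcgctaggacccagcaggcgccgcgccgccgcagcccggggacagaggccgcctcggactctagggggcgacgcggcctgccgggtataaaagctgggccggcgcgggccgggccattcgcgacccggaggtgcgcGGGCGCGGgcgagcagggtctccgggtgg
CEBPG, upstream start (chr19:33373459-33373758, plus strand): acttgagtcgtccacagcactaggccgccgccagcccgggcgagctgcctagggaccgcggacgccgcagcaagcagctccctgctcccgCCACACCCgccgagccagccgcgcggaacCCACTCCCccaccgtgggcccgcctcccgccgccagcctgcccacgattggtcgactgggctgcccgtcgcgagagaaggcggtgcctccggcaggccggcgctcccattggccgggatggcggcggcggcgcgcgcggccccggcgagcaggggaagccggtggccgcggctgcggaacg

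Base composition was alike in these promoters, with 77.0% and 76.7% G or C at the CEBPB starts, 80.7% at CEBPA and 77.3% at the upstream CEBPG start, against a median of 58.7% over the table's 35116 promoters. The KLF-type motif matched 6 and 3 times at the upstream and downstream CEBPB starts, 2 times at CEBPA and 2 times at the upstream CEBPG start. Some CEBPB matches overlap one another, and the windows of its starts overlap at their ends. A downstream CEBPG start in the same table, not printed here, had 1 match and 79.7% G or C. Over all promoters of the same length 56.2% held at least 1 match. The C/EBP-type motif had 0 matches in the 4 printed promoters and occurred in 10.5% of all. These letters are a description of the windows, and their place relative to the peaks was not computed because the hg19 sequence was not used here.

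Peaks were concentrated at CEBPB and TRIB1. CEBPB, the gene, had 13 CEBPB peaks, 4 Calu-3 KLF5 peaks and 16 16HBE14o- KLF5 peaks. TRIB1 had 18 CEBPB peaks, 4 Calu-3 KLF5 peaks and 1 16HBE14o- KLF5 peak. CEBPA, CEBPG and CEBPD had 5, 6 and 4 CEBPB peaks and no KLF5 peak of either line.

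The number of peaks was set beside the density of the surrounding chromosome. At the density of the 5 Mb on each side, the window of CEBPB would have held 7.86 CEBPB, 0.426 Calu-3 KLF5 and 2.50 16HBE14o- KLF5 peaks. The TRIB1 window would have held 7.13, 0.293 and 0.125 peaks of the same lists. CEBPA and CEBPG, at 10.2 and 10.5 CEBPB peaks, lay below the density of their surroundings. CEBPD lay above it, with 4 peaks against 2.26, from flanks that listed 11.2 CEBPB peaks per Mb. Its window, at 19.8 CEBPB peaks per Mb, was nevertheless below the 23.6 of chromosome 8 as a whole. The full length of the flanks was used, with no allowance for stretches in which no peak can be listed. Such stretches would make the numbers from the flanks too low.

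**Figure D1:**
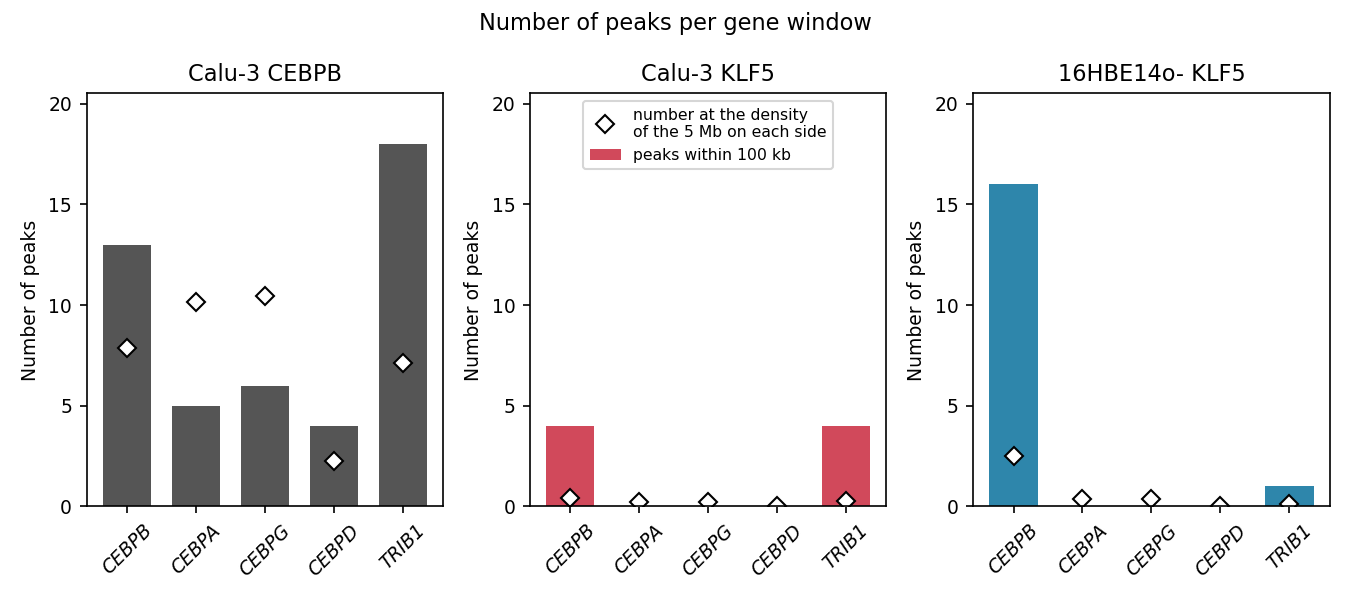
Number of peaks with midpoint within 100 kb of each gene (bars) in the 3 lists; diamonds give the number that the window would hold at the density of the 5 Mb on each side. KLF5 bars are above 0 only at CEBPB and TRIB1, and the 16HBE14o- bar at CEBPB reaches 16.

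A second background came from tiling the genome in windows as long as each gene's, leaving out tiles that touched the gene's own window and tiles with no peak in any list. For CEBPB, 4.43% of 12716 tiles held 13 or more CEBPB peaks, 0.330% held 4 or more Calu-3 KLF5 peaks, and 1 tile, with 23, held 16 or more 16HBE14o- KLF5 peaks. For TRIB1, 0.791% of 12383 tiles held 18 or more CEBPB peaks, 0.291% held 4 or more Calu-3 KLF5 peaks and 15.2% held at least 1 16HBE14o- KLF5 peak. CEBPA, CEBPG and CEBPD were ordinary by this measure, since 53.6%, 44.4% and 65.2% of their tiles held as many CEBPB peaks or more. The absence of KLF5 peaks at these 3 genes was also the common state, as 91.4%, 91.2% and 91.5% of tiles held no Calu-3 and 85.1%, 84.9% and 85.2% no 16HBE14o- KLF5 peak. Tiles include stretches without genes, and no tile was matched to a gene.

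**Figure D2:**
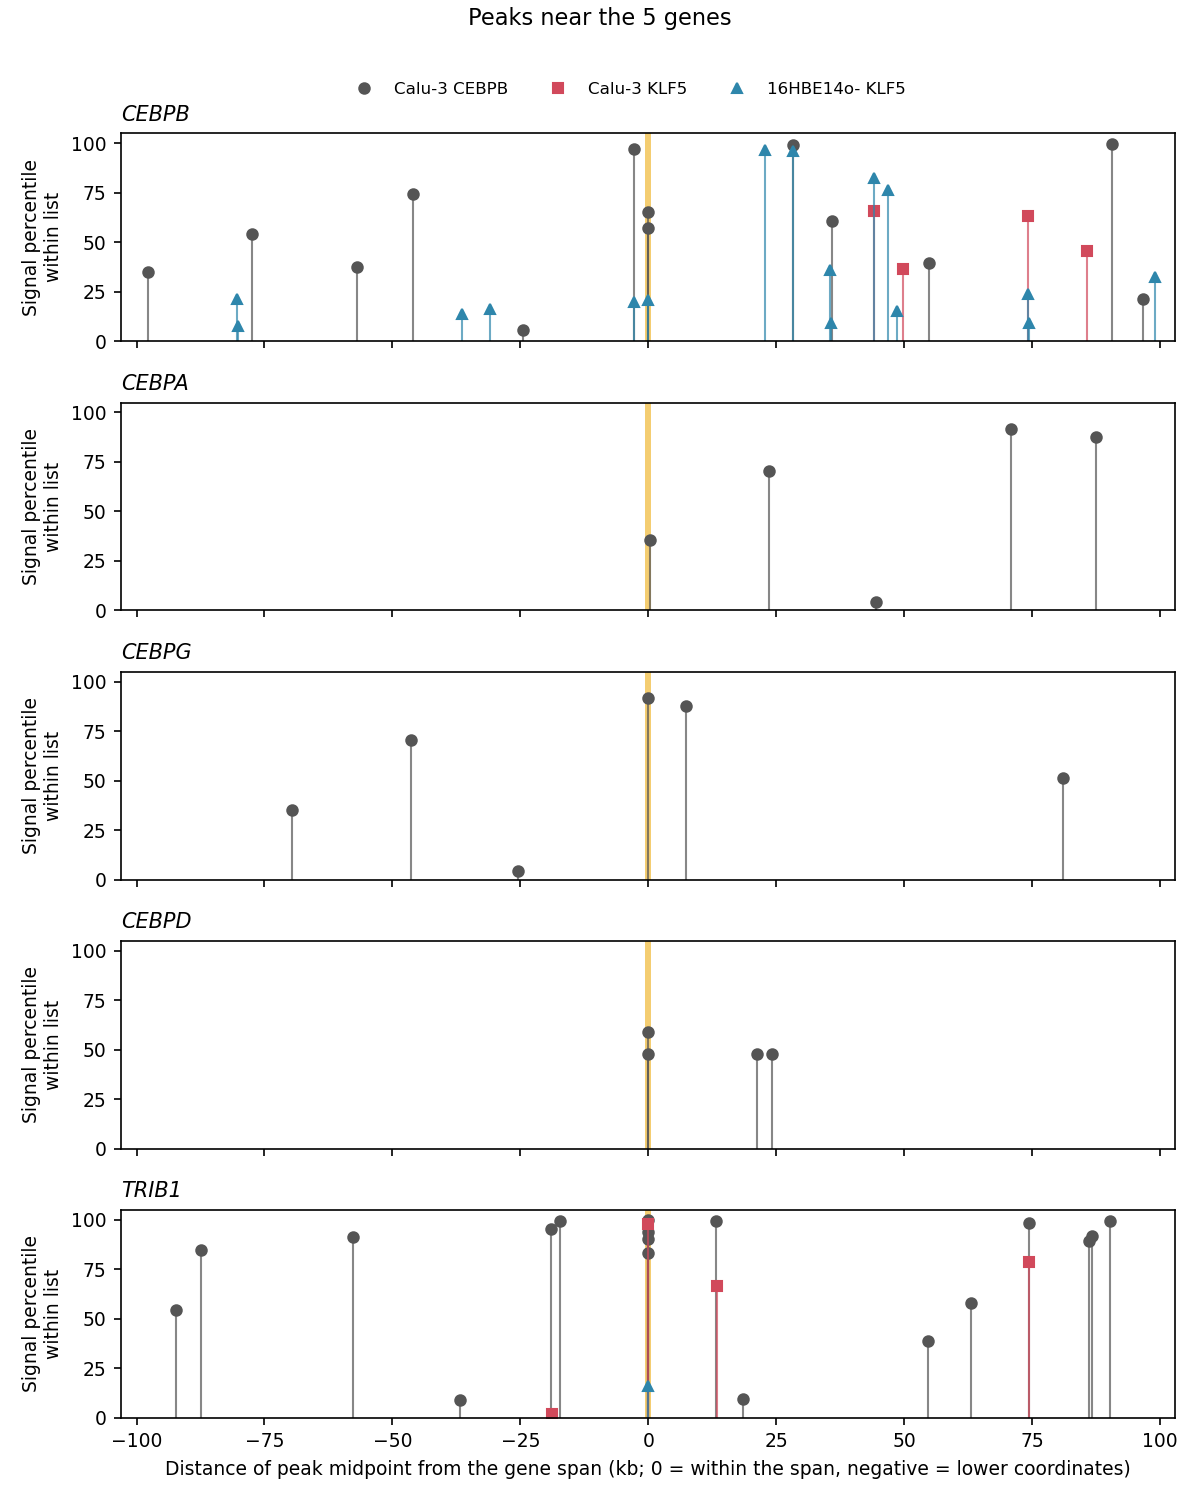
Each peak near the 5 genes, by distance of its midpoint from the gene span in kb (0 within the span, negative towards lower coordinates) and by its signal percentile within its own list. Calu-3 CEBPB peaks are circles, Calu-3 KLF5 peaks squares and 16HBE14o- KLF5 peaks triangles; the yellow band marks the span. All 4 Calu-3 KLF5 peaks of CEBPB lie on the side of higher coordinates, 44.1 to 85.8 kb from the span.

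At its own gene, CEBPB was listed at 2 peaks that overlapped the gene span, and neither was in the top 10% of the list by signal. The first, on chromosome 20 at 48807428 to 48807763, had a signal of 3.56 (percentile 65.0; the highest peak of a list is at 100) and a −log10 q-value of 3.40 by the authors' caller. The second, at 48808909 to 48809050, had a signal of 3.35 (percentile 57.3) and a −log10 q-value of 3.39. Both were past a q-value of 0.05, as were 10 of the 13 CEBPB peaks of the window and 46.3% of the whole list. The median signal of the list was 3.17.

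Stronger CEBPB peaks flanked the gene. At 48804052 to 48804324, 2.81 kb before the span, the signal was 9.87 (percentile 97.0). At 48838041 to 48838353, 28.2 kb beyond the span, it was 15.2 (percentile 99.1), and at 48900402 to 48900719, 90.6 kb beyond, it was 19.8 (percentile 99.6). These 3 of 13 were the window's peaks in the top 10% of the CEBPB list (10.0% by construction), and the other 10 ran from percentile 5.79 to 74.2.

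KLF5 in 16HBE14o- was listed within the span of CEBPB as well, on chromosome 20 at 48807935 to 48808278, with a signal of 24.6 (percentile 21.1) and a −log10 q-value of 1.30. This peak fell between the 2 CEBPB peaks of the span, 171 bases from the first and 630 from the second, and overlapped neither. The KLF5 peak at 48804049 to 48804392 covered the strong CEBPB peak before the span, with summits 40 bp apart, but was itself weak (signal 24.2, percentile 19.7).

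The strongest 16HBE14o- KLF5 peaks of the locus lay 22.7 to 46.8 kb beyond the span. They stood at 48832565 to 48832908 (signal 64.6, percentile 96.7), 48838117 to 48838460 (62.4, percentile 96.2), 48853932 to 48854275 (41.4, percentile 82.6) and 48856613 to 48856956 (38.0, percentile 76.6). The second of these shared 237 bp with the CEBPB peak of percentile 99.1, with summits 97 bp apart, and it was the 1 place near CEBPB at which both a KLF5 and a CEBPB peak ranked in the top 10% of their lists. The fifth by signal, at 48845385 to 48845728, had a signal of 27.5 (percentile 35.8). The remaining 11 ran from percentile 7.79 to 32.4. Of the 16 entries, 9 were past a q-value of 0.05 (56.2%), against 78.9% of the whole list, and only 4 were in the higher 50% by signal. The 16 include pairs of overlapping entries, described below. The weaker entries of these pairs (signals 15.3, 17.4 and 17.2) were not past 0.05, which lowers the share.

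The nearest Calu-3 KLF5 peak was 44.1 kb from the span of CEBPB. The 4 peaks were at 48853965 to 48854244 (signal 31.1, percentile 66.0), 48859707 to 48859986 (24.5, percentile 36.7), 48884099 to 48884378 (30.4, percentile 63.1) and 48895607 to 48895886 (26.3, percentile 45.4). All 4 were past a q-value of 0.05, as were 86.6% of the list. The first and the third coincided with 16HBE14o- KLF5 peaks, with summits 1 bp and 3 bp apart, and the third touched a further 16HBE14o- entry. At unknown depth, a peak missing from the Calu-3 list does not show that the site was unbound.

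The distribution of peaks over chromosome 20 differed between the KLF5 lists as a whole. That chromosome held 14.1% of the 16HBE14o- and 6.56% of the Calu-3 KLF5 list, and the 5 Mb on each side of the CEBPB window had 12.3 and 2.10 peaks per Mb, against 1.09 and 0.504 over the whole lists. The CEBPB window took 0.490% of the 16HBE14o- list and 0.265% of the Calu-3 list. As a share of the chromosome's own peaks it took 16 of 459 (3.49%) and 4 of 99 (4.04%). The part of the chromosome's density in the higher count of 16HBE14o- was not tested. RefSeq on GRCh38.p14 places CEBPB-AS1 and LINC01273 on the lower side of CEBPB and LOC107985386, LOC105372656, PELATON and LINC01270 on the higher side, so the peaks at some distance may lie nearer to these transcripts, and none was assigned to a gene.

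**Figure D3:**
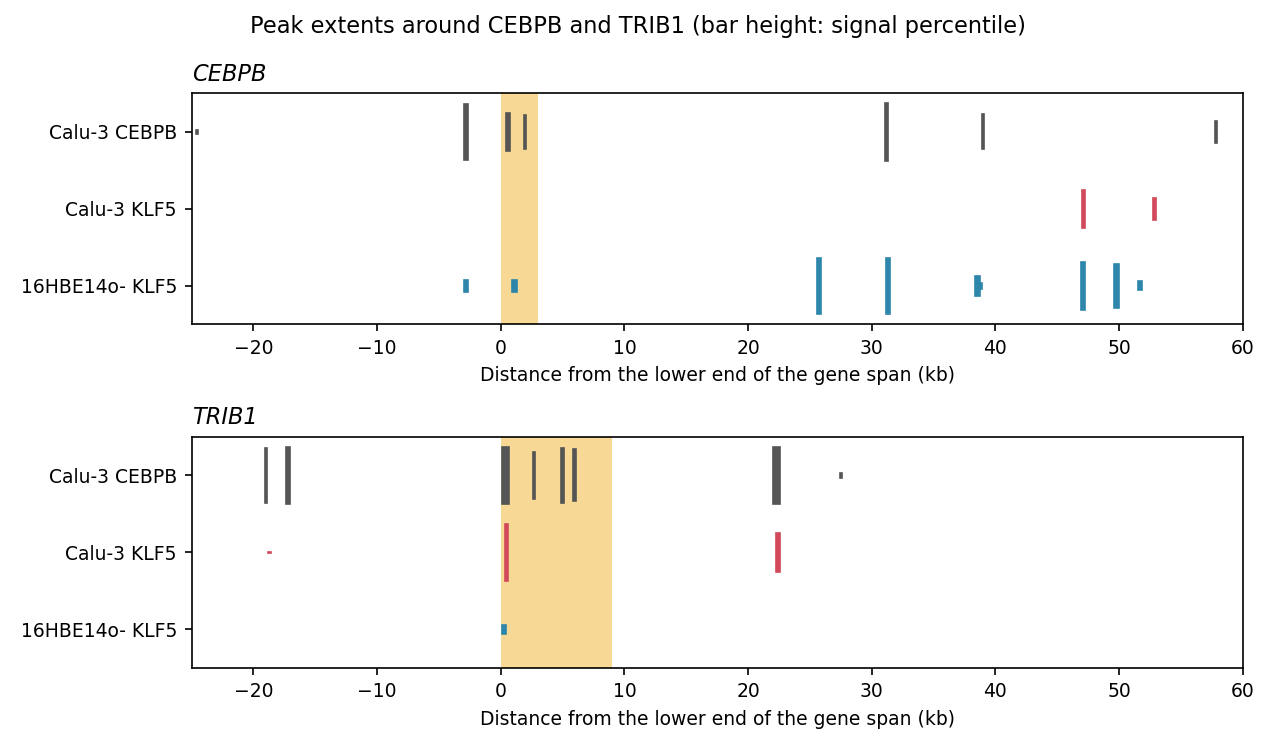
Extents of the peaks from 25 kb before to 60 kb beyond the lower end of the gene span of CEBPB and TRIB1, in kb, 1 row per list; bar height is the signal percentile within the list and the yellow band is the span. Near CEBPB the tall bars of 16HBE14o- KLF5 stand beyond the span and Calu-3 KLF5 begins near 47 kb, whereas at TRIB1 all 3 lists have a peak at the lower end of the span.

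In the Calu-3 lists the highest CEBPB and the highest KLF5 peak near the 5 genes were both at TRIB1, whereas in 16HBE14o- KLF5 the highest was at CEBPB. At the lower end of its span all 3 lists had a peak, the only such site among the 41 CEBPB peaks. The CEBPB peak there, on chromosome 8 at 126442083 to 126442660, had a signal of 24.4 and was the 87th highest of 69386 (percentile 99.9). The Calu-3 KLF5 peak at 126442312 to 126442591 had a signal of 67.1 and was the 36th highest of 1510 (percentile 97.7). Its summit was 18 bp from that of CEBPB, and it lay wholly within the CEBPB peak. The 16HBE14o- KLF5 peak at 126442103 to 126442446 was weak, with a signal of 22.9 (percentile 16.0) and a −log10 q-value of 1.14, short of the 0.05 threshold. Its summit was 177 bp from the Calu-3 KLF5 summit and 195 bp from that of CEBPB.

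Inside the span of TRIB1 3 further CEBPB peaks were listed, at 126444583 to 126444768 (signal 4.27, percentile 83.1), 126446845 to 126447080 (7.12, percentile 94.0) and 126447850 to 126448060 (5.50, percentile 90.2). None was overlapped by KLF5. Outside the span the strongest were at 126541052 to 126541366 (signal 16.5, percentile 99.3), 126424644 to 126424957 (16.3, percentile 99.3), 126464031 to 126464541 (16.3, percentile 99.3) and 126525300 to 126525647 (13.3, percentile 98.6). The first of these, 90.2 kb beyond the span, and the second, 17.2 kb before it, had no KLF5 peak.

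The remaining sites of TRIB1 with both factors were also strong for CEBPB. The Calu-3 KLF5 peak at 126464275 to 126464554, 13.4 kb beyond the span, had a signal of 31.3 (percentile 66.4) and its summit was 37 bp from that of CEBPB. The one at 126525334 to 126525613, 74.5 kb beyond, had a signal of 36.4 (percentile 78.7) with summits 12 bp apart. The fourth Calu-3 KLF5 peak, at 126423140 to 126423419, was among the weakest of its list (signal 10.8, percentile 2.19, −log10 q-value 0.110). The CEBPB peak at 126422924 to 126423136 (percentile 95.4) lay 3 bases from it without overlap, with summits 263 bp apart.

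In all, 10 of the 18 CEBPB peaks of TRIB1 were in the top 10% by signal (55.6%, exact Clopper-Pearson 95% interval 30.8 to 78.5, for counting error only), against 10.0% of the list. The other 8 ran from percentile 8.80 to 89.3. No other tile of the same length held more than 8 such peaks, although tiles have fixed edges and a window moved along the genome could hold more. At the density of its surroundings the window would have held 1.07. By the authors' q-values 16 of the 18 were past 0.05, against 46.3% of the list. The 5 Mb on each side held 34.1 CEBPB and 1.40 Calu-3 KLF5 peaks per Mb, above the 23.6 and 0.712 of chromosome 8 as a whole. RefSeq on GRCh38.p14 places NSMCE2 below TRIB1 and the long non-coding RNAs TRIB1AL and LINC02964 above it, and no distant peak was assigned to any of them.

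CEBPA and CEBPG lie next to each other on chromosome 19, with CEBPA-DT between them and PEPD beyond CEBPG. Just outside the span of CEBPA, 0.44 kb beyond its higher end, CEBPB was listed at 33794285 to 33794588 with a signal of 3.02 (percentile 35.4) and a −log10 q-value of 1.05, which did not reach a q-value of 0.05. At CEBPG the CEBPB peak overlapped the span, at 33864523 to 33865168, with a signal of 5.91 (percentile 91.5) and a −log10 q-value of 9.30. It was 646 bp wide, against a list median of 151 bp, and was the 1 peak of either window in the top 10%.

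A further CEBPB peak at 33881354 to 33881565, 7.46 kb beyond the span of CEBPG, had a signal of 4.86 (percentile 87.7) and a −log10 q-value of 10.5. Between the genes stood peaks at 33817514 to 33817638 (signal 3.60, percentile 70.6) and at 33838407 to 33838559 (2.31, percentile 4.31). The last, at 33954934 to 33955058, was 81.0 kb beyond CEBPG (3.20, percentile 51.4). Below the span of CEBPA no CEBPB peak was listed within 100 kb. The nearest Calu-3 KLF5 peak was 200.9 kb from CEBPA and 274.9 kb from CEBPG, and the nearest 16HBE14o- KLF5 peak 204.1 and 124.1 kb.

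CEBPD had no CEBPB peak of high signal. Of its 4 peaks 2 overlapped the span, on chromosome 8 at 48650240 to 48650400 (signal 3.17, percentile 47.7) and 48650554 to 48650724 (3.40, percentile 58.8). The others, at 48672280 to 48672415 and 48675085 to 48675310, had the same signal of 3.17 and percentile as the first. The second had a −log10 q-value of 1.24 and the other 3 of 0.832, so 0 of the 4 were past a q-value of 0.05. KLF5 was far from this gene in both lists: the nearest 16HBE14o- peak was 1083 kb and the nearest Calu-3 peak 6739 kb from the span. RefSeq places SPIDR and PRKDC on its sides.

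**Figure D4:**
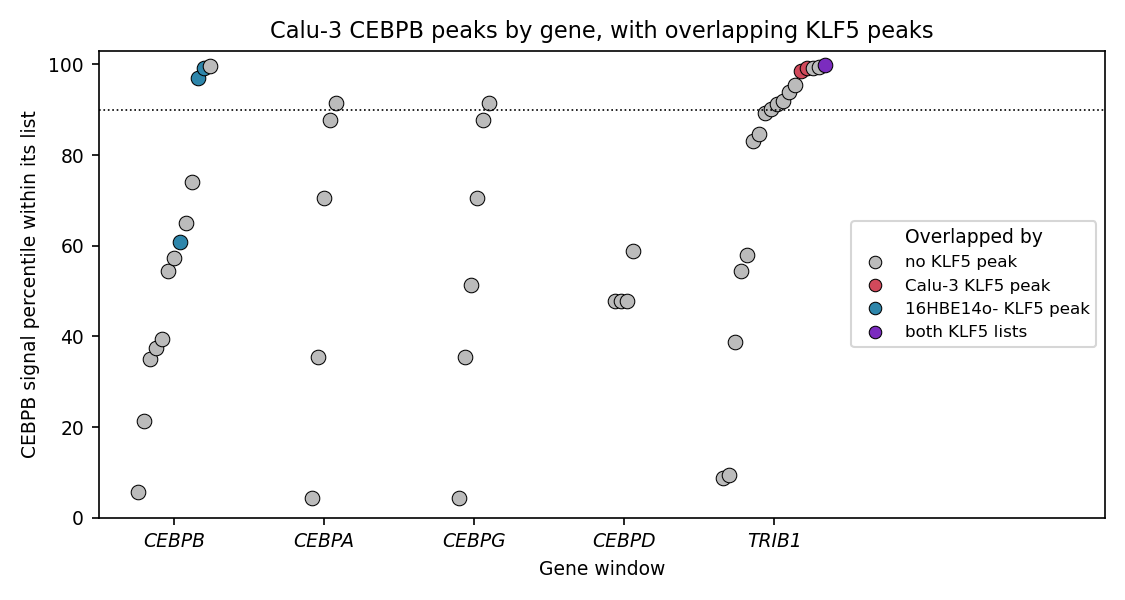
Signal percentile of each Calu-3 CEBPB peak within its list, by gene window, ordered within each gene; colours give the overlapping KLF5 peak and the dotted line marks the top 10%. At TRIB1 10 of 18 peaks lie above the line, at CEBPB 3 of 13 and at CEBPD 0 of 4; the 5 peaks shared by the CEBPA and CEBPG windows appear in both columns.

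Over the 5 genes together, CEBPB peaks had a median percentile of 65.0, and 14 of 41 were in the top 10% (34.1%, 20.1 to 50.6), of which 10 were at TRIB1. By gene window the median percentile was 90.7 at TRIB1, 70.6 at CEBPA, 61.0 at CEBPG, 57.3 at CEBPB and 47.7 at CEBPD. The high ranks were thus mainly those of TRIB1. By order of their highest CEBPB peak and with each peak given to the nearer gene, the genes stood as TRIB1 (signal 24.4), CEBPB (19.8), CEBPG (5.91), CEBPA (3.60) and CEBPD (3.40). Each list gives 1 value per peak, so whether neighbours in this order differ beyond the spread of samples cannot be said. KLF5 peaks of 16HBE14o- ranked low, with a median percentile of 21.1 over the 17, and those of Calu-3 had a median of 64.5 over the 8. Overlapping entries of the 16HBE14o- list were each counted in the 17.

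Overlaps between peaks of the factors were counted gene by gene. At TRIB1, 3 of the 4 Calu-3 KLF5 peaks overlapped a CEBPB peak, and at CEBPB 0 of 4 did, which made 3 of 8, near the 43.7% of the whole Calu-3 KLF5 list. Seen from CEBPB, 3 of 41 peaks had Calu-3 KLF5 (7.32%, 1.54 to 19.9), against 0.938% of the list, and all 3 were at TRIB1 and above percentile 98. With 16HBE14o- KLF5, 4 of 41 CEBPB peaks overlapped (9.76%, 2.72 to 23.1), against 1.03% of the list, 3 of them near CEBPB. From the 16HBE14o- list these were 4 of 17 peaks (23.5%), against 22.4% of that list. Such overlaps join peaks of different lines, so they do not show both factors at a site in the same cells. The KLF5 lists shared 3 of the 8 Calu-3 peaks (23.6% in the whole list) and 4 of the 17 16HBE14o- entries (11.3%). The Calu-3 peak that starts at 48884099 touched overlapping 16HBE14o- entries, starting at 48884064 and 48884276, which are counted separately in the 4. Shares of 4 or 8 KLF5 peaks have wide intervals. Those of 3 of 4 at TRIB1 and 0 of 4 at CEBPB overlap, and both include 43.7%. A difference between these genes in that share is therefore not shown. The intervals for the 41 CEBPB peaks count each peak as independent, although the peaks lie together in a few windows. They are therefore no test against the share of the list. The genes were also proposed with earlier results of these lists known, peaks are not replicates, and no test was made.

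The 100 kb limit decided a few members. The last included peak was the 16HBE14o- KLF5 peak 99.1 kb beyond CEBPB (percentile 32.4), followed by the CEBPB peak 97.8 kb before that gene (percentile 35.0). The nearest excluded CEBPB peaks were 104.5 kb from CEBPG (percentile 51.1), 104.8 kb from CEBPA (percentile 32.2), 106.0 kb from TRIB1 (percentile 91.9), 110.1 kb from CEBPD (percentile 87.0) and 112.6 kb from CEBPB (percentile 59.5). The nearest excluded KLF5 peak of any gene was that of 16HBE14o- at 115.4 kb from CEBPB (percentile 67.4).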

How the data were processed

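Peak lists from 6 ChIP-seq samples in 3 groups of 2 were used as deposited, 1 list per group, with hg19 coordinates (file headers; the submitters' processing notes). The series' design text states that a list combines the samples of its group; per the file headers the KLF5 lists are IDR optimal peaks and the CEBPB list IDR peaks (IDR is the irreproducible discovery rate). The aligner, peak caller, control and filters are not given in the sources used here. The signal and the score of each peak are the authors' deposited values, of unstated normalization, and the deposited −log10 q-values of the 3 lists and −log10 p-values of the CEBPB list are their caller's. The KLF5 lists hold no p-values. These values describe or rank peaks within 1 list. The lists hold no read counts, so the depth is unknown.

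Midpoints, distances and overlaps of at least 1 bp were computed in Python 3.11.15 with numpy 2.4.6, pandas 2.3.3, scipy 1.17.1 and matplotlib 3.10.9. Percentiles are mean ranks of the signal. Of the KLF5 peaks, 99.3% in Calu-3 and 99.4% in 16HBE14o- had the same width, 280 and 344 bp, so their edges are set by the summit. The counting was tested on simulated lists with planted peaks. Named were all KLF5 peaks of a window (the 5 of highest signal where there were more), and for CEBPB the 3 of highest signal, those at a KLF5 peak and the strongest at the span; further peaks were named after their values were seen. The genes, lists and rules were chosen with earlier results of these data known. Family members beyond these 5 were not counted because no hg19 annotation was used here. Intervals are exact and cover counting error only.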

Additional observations from a re-analysis of the deposited data

How the results depend on the processing

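The peak counts, the overlaps, the share in the top 10%, the median percentile and each gene's counts and highest CEBPB percentile were recomputed with other windows, with summits for midpoints, with q-values of 0.05 or less, in the higher 50% by signal, with overlapping entries merged, and with stricter overlap; ranking CEBPB by q-value was added after seeing the data. The comparisons with flanks, tiles and whole chromosomes were not recomputed. Of 73 recomputed totals 54 stayed within 1.5 times the main value or its interval. Of 144 values for single genes 108 stayed within 1.5 times or, for the highest percentile, 5 points, and 36 moved. Neither tally measures stability, because some values could not move. A count of 0 stays 0 in a smaller window or a filtered list, and the CEBPB list had no overlapping entries to merge. The 54 totals also include the shares and medians of the filtered settings, described below. Among the 36 that moved, the highest CEBPB percentile at CEBPA went from 91.5 to 35.4 within 10 kb and that at CEBPD from 58.8 to 89.0 within 200 kb. The peak of percentile 91.5 overlaps the span of CEBPG and lies 70.8 kb from that of CEBPA. There were 41 CEBPB peaks within 100 kb, 12 within 10 kb, 25 within 50 kb and 80 within 200 kb. Of the 8 Calu-3 KLF5 peaks 5 lay within 50 kb, 1 within 10 kb, and 5 were in the higher 50%. The 17 16HBE14o- KLF5 peaks became 3 within 10 kb, 9 by q-value and 4 in the higher 50%. CEBPB peaks with Calu-3 KLF5, and the reverse, went from 3 to 6 at 200 kb and 1 at 10 kb. Calu-3 KLF5 peaks shared with 16HBE14o- fell to 1 at 10 kb and in the higher 50%. The 4 16HBE14o- KLF5 peaks with CEBPB became 2 at 10 kb or with summits within 100 bp, and 1 by q-value or in the higher 50%. Over the other windows the share of CEBPB peaks in the top 10% was 31.2% to 41.7% and their median percentile 70.6 to 85.4. Ranked by q-value they were 43.9% and 82.7. These values lay within the intervals of the main values (20.1 to 50.6% and 51.4 to 90.2). The filtered settings are not on that scale. With q-values of 0.05 or less, whole-list percentiles were kept, so the filter itself tends to raise them (48.3% and 89.3). In the higher 50%, peaks were ranked anew among those kept (32.1% and 79.1), so neither setting shows stability. At CEBPA, CEBPG and CEBPD no KLF5 peak lay within 100 kb, so none could appear within 10 or 50 kb. At 200 kb 1 16HBE14o- peak appeared at CEBPG. With q-values of 0.05 or less, CEBPD had 0 CEBPB peaks and TRIB1 0 16HBE14o- KLF5 peaks. No replicate could be left out and no paired analysis was possible because the samples of a group were combined into 1 list by the authors. Unknown depth limits every statement on a peak that a list lacks.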

Other observations

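The 16HBE14o- count at CEBPB holds several double entries. On chromosome 20 the entries that start at 48726517 and 48726728, at 48845385 and 48845601, and at 48884064 and 48884276 overlap within their own list, with summits 211, 216 and 212 bp apart. Each pair has the same deposited score (812, 682 and 551), while the signal of the second entry is lower in each (15.3 against 24.7, 17.4 against 27.5 and 17.2 against 25.2). Merged, the 16 entries make 13 regions. Such pairs are common in that list: 264 were found, 176 of them (66.7%) with equal scores, at a median summit distance of 207 bp. Calu-3 KLF5 had 36 pairs, 22 of them (61.1%) with equal scores, at a median of 204 bp and none near the 5 genes. The CEBPB list had no overlapping entries. Of the 4 16HBE14o- KLF5 peaks with a CEBPB peak, the one that starts at 48845601 is the weaker entry of such a pair. It shares only 48 bp with the CEBPB peak at 48845897 to 48846062, and the stronger entry of the pair ends 168 bases before that peak.

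Beyond 100 kb the CEBPB peaks at TRIB1 continued, with 38 within 200 kb of the span against 18 within 100 kb. At CEBPB the numbers were 21 and 13.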
